A study of Homo sapiens with 36 samples.

Results

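The genes described here encode voltage-gated sodium, calcium and potassium channels with their auxiliary subunits, together with the related inward rectifier, calcium-activated and tandem-pore-domain potassium channels. They were all protein-coding genes of the count table whose symbol belongs to the SCN, CACN or KCN series of pore and auxiliary subunits, 135 of 60675 genes in the table and of 19586 protein-coding genes. Sodium channels contributed 14 genes, calcium channels 26 and potassium channels 95. They were measured by RNA sequencing of 2 human cell lines after 24 h with ACD, the hot aqueous extract of monkshood (Aconitum carmichaeli Debeaux). The labels name it a water extract of Aconiti Lateralis Radix Preparata. Alkaloids of this plant are known to bind voltage-gated sodium channels. In the extract used, the paper quantified benzoylmesaconine and benzoylaconitine and listed aconitine as not detected. SW1783 is an astrocytoma line and HT29 a colorectal adenocarcinoma line, each a single established line. In each line, batch B held a vehicle group and ACD at 20 µg/mL (low), 100 µg/mL (medium) and 500 µg/mL (high), and batch A held its own vehicle group and 10 µM wortmannin, the positive control, which inhibits PI3K. The labels give the vehicle as 0.1% DMSO and name no other agent for the vehicle groups. The 12 groups had 3 libraries each, 36 in all. Nothing in the sources says whether these came from separate cultures, so the p-values measure the spread between these libraries, which may be technical.

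Voltage-gated channels open when the membrane potential changes. Sodium channel pore subunits carry the inward current that starts an action potential, calcium channel pore subunits admit calcium that couples the potential to secretion, contraction and transcription, and potassium channels return the membrane to rest. Auxiliary subunits set trafficking and gating. In colonic epithelium, potassium channels are known above all for keeping up the driving force for chloride secretion, and in glial cells for setting the resting potential and buffering potassium.

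Library totals ranged from 18863852 to 26436841 counts for SW1783, and for HT29 they ranged from 15941250 to 33866636. The channel genes together took 0.0374% to 0.042% of the counts in SW1783 and 0.0203% to 0.0414% in HT29, where replicate 2 of the high dose was the lowest. That library also stood apart over all genes. The chi-square statistic of library pairs per degree of freedom reached 65.1 within groups of HT29 and 3.55 within groups of SW1783, so HT29 results at the high dose are also given without it. Vehicle replicate 1 of HT29 was also far from replicates 2 and 3, with 13.5 to 15.8 in both batches beside 3.54 and 3.78 between the other two, and the HT29 calls are given without it as well. The low dose libraries of HT29 were likewise far apart, with 7.93 to 19.97. Vehicles with the same replicate number were closer across the batches (1.51 to 1.61 for SW1783, 1.44 to 1.51 for HT29) than those of unlike number (1.96 to 2.95 and 3.74 to 16.1), so the vehicles of batches A and B may not be independent of each other. All 6 markers of intestinal epithelium were over 1 CPM (counts scaled to an equal library total) in HT29. In SW1783 the mesenchymal markers VIM, COL1A2 and CD44 passed this level, whereas the defining astrocyte markers GFAP, S100B and AQP4 had at most 6, 5 and 1 counts in any library. Of 6 neuronal markers, SNAP25, SYT1 and MAP2 were over 1 CPM in SW1783 and ELAVL4 had no counts.

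Which of the channel genes were transcribed was read from the batch B vehicle, as a mean of more than 10 counts over 3 libraries. In SW1783 52 of 135 genes (38.5%) passed this level and in HT29 32 (23.7%), beside 65.6% and 62.7% of all protein-coding genes. Both lines transcribed 18, SW1783 alone 34, HT29 alone 14 and neither 69, and 9 genes had no count in any of the 36 libraries. The same split over all protein-coding genes was not counted, so it cannot be said whether this split is particular to channel genes. Levels of different genes were compared as CPM per kilobase of exon. The median over the transcribed channel genes was 0.398 in each line on this scale, whereas the median of all transcribed protein-coding genes was 5.33 in SW1783 and 5.4 in HT29. Just above the threshold were KCNK13, KCNG3 and CACNA1D in SW1783, with means of 10.7, 11 and 11.3 counts, and KCNAB3 in HT29 with 11.3. CACNA1H in SW1783, with a mean of 9 counts, and SCN9A in HT29, with 9.67, were just below it.

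**Figure D1:**
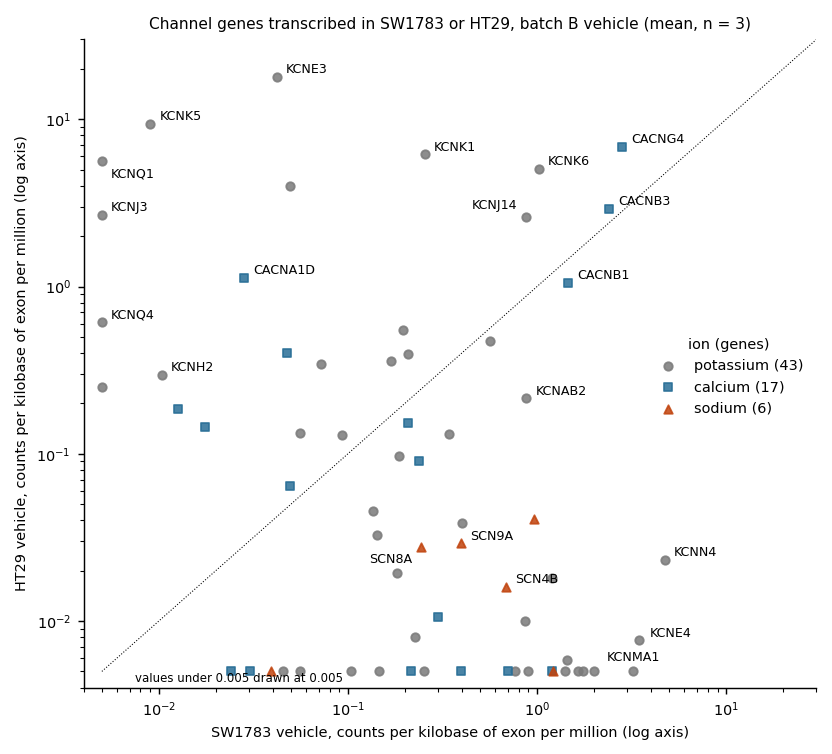
Vehicle level of the 66 channel genes transcribed in at least 1 line, with SW1783 on the horizontal and HT29 on the vertical axis, both in CPM per kilobase of exon on log axes. Each point is the mean of 3 batch B vehicle libraries. KCNE3, KCNK5 and KCNQ1 sit far toward HT29 and KCNN4, KCNE4 and KCNMA1 far toward SW1783, while CACNB3 (2.4 and 2.92) lies near equality.

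The channel repertoires of SW1783 and HT29 differed widely in the 6 vehicle libraries of batch B. Of the 94 channel genes with an adjusted p-value, 44 were higher in SW1783 and 24 higher in HT29, 68 in all (72.3%). Over all genes 50.2% differed by the same rule, 27.2% higher and 23% lower in SW1783 (DESeq2 Wald test, adjusted p < 0.05 and more than 1.5-fold). The lines were kept in different media, L-15 without carbon dioxide for SW1783 and DMEM with it for HT29, and were plated at different densities. Line and these culture conditions cannot be told apart. Against a line with no counts the fold was taken as a lower bound, from a floor of 3 counts per library. Only channel genes transcribed in the other line, by the threshold given above, were taken for this. That rule limits how low these folds can be. On that basis 13 genes were at least 4.29-fold to 233-fold higher in SW1783 and 3 at least 8.57-fold to 90.9-fold higher in HT29. Genes meeting the same rule were not counted over all genes, so it cannot be said whether this split is particular to channel genes.

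Sodium channel genes were transcribed mostly in SW1783, with 6 of 14 over the threshold there and 1 in HT29. Among the pore subunits, SCN3A (Nav1.3, an embryonic neuronal channel) was the highest in SW1783 at 1.21 ± 0.073 CPM per kilobase (SD, n = 3). SCN9A (Nav1.7, known from pain neurons) followed at 0.398 ± 0.094, SCN8A (Nav1.6, of the axon initial segment) at 0.245 ± 0.046 and SCN2A (Nav1.2) at 0.0394 ± 0.0042. In that order SCN9A and SCN8A were the neighbours closest to each other relative to their SDs. SCN1A, SCN4A, SCN7A, SCN10A and SCN11A had at most 2 counts in any of the 36 libraries, and a change in them was not detectable at this depth. In HT29 SCN8A alone passed the threshold, at 13.3 counts and 0.0277 ± 0.0096 CPM per kilobase. It was higher in SW1783 by 3.12 ± 0.35 on the log2 scale (SE, adjusted p = 4.11e-18). The beta subunit SCN4B, of a family that modulates gating and cell adhesion, was at 0.686 ± 0.023 CPM per kilobase in SW1783 and at a mean of 2.33 counts in HT29. On GRCh38, SCN3A (chr2:165087526-165204050), SCN2A, SCN1A, SCN9A and SCN7A lie within 1523957 bases of chromosome 2. SCN3A and SCN2A overlap on opposite strands by 9058 bases, so their reads can be told apart there only if the counting used strand, a setting the sources do not state.

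Calcium channel genes were more evenly shared, with 13 of 26 transcribed in SW1783 and 10 in HT29, but the pore subunits differed. CACNA1C, the L-type channel of heart and smooth muscle, had 528 to 777 counts in the 18 libraries of SW1783 and at most 1 count in any library of HT29, so that in the vehicle it was at least 233-fold higher in SW1783. HT29 transcribed CACNA1D, the neuroendocrine L-type channel, at 1.13 ± 0.18 CPM per kilobase beside 0.0283 ± 0.0039 in SW1783 (log2 difference -5.30 ± 0.29, adjusted p = 3.74e-73). CACNA1B (N-type) and CACNA1E (R-type), both presynaptic channels, had at most 3 and 2 counts in any library. The cytosolic beta subunits carry pore subunits to the membrane. CACNB3 was the highest of them in both lines, at 2.4 ± 0.017 in SW1783 and 2.92 ± 0.14 in HT29. CACNG4, a gamma subunit that also accompanies AMPA receptors, was the highest calcium channel gene of both lines, at 2.8 ± 0.1 in SW1783 and 6.82 ± 0.22 in HT29 (log2 difference -1.27 ± 0.11, adjusted p = 1.78e-31). CACNB1 followed these in SW1783, at 1.46 ± 0.07.

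Among the potassium channel genes, 33 of 95 were transcribed in SW1783 and 21 in HT29. The highest in SW1783 was KCNN4 (the intermediate-conductance calcium-activated channel), at 4.74 ± 0.44 CPM per kilobase. The accessory subunit KCNE4 at 3.47 ± 0.5 and KCNMA1 (the large-conductance BK channel) at 3.23 ± 0.069 came next and did not differ beyond their SDs. In HT29 the same genes were at 0.0232, 0.00767 and 0.000266 CPM per kilobase. HT29 was led by KCNE3, at 17.9 ± 0.25, which joins KCNQ1 in the basolateral channel of crypt cells. The tandem-pore-domain channels KCNK5 at 9.39 ± 0.58 and KCNK1 at 6.16 ± 0.096 and KCNQ1 itself at 5.59 ± 0.31 followed. In SW1783 KCNE3 and KCNQ1 were at 0.0423 and 0.00325. The silent modifiers, Kv subunits that make no channel alone but alter Kv2 channels, passed the threshold in SW1783 for 5 of 10 and in HT29 for 0 of 10. Among these KCNG1 (1.75 ± 0.031) and KCNS3 (1.43 ± 0.088) led in SW1783. The calcium- and sodium-activated pore subunits passed it for 3 of 8 and 0 of 8. KCNH2 (hERG, the cardiac repolarising channel) had 26 to 78 counts in the 18 libraries of HT29 and at most 5 in SW1783.

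Across the 8 comparisons of a treatment with its vehicle, 24 channel genes passed both thresholds at least once, in 31 gene and comparison pairs. These were 28.2% of the 85 channel genes with an adjusted p-value in any of them, beside 20.4% over all genes. Of the 24, 18 passed in SW1783 alone (75%), 5 in HT29 alone (20.8%) and CACNG4 in both lines (4.17%), beside 80.8%, 12.5% and 6.7% of the 4346 genes that passed over all. CACNG4 fell with ACD in SW1783 and rose with wortmannin in HT29. A gene was said to rise or fall when the adjusted p-value of the DESeq2 Wald test over all genes was under 0.05 and the change over 1.5-fold. Bulk counts do not tell fewer cells that transcribe a gene from less RNA per cell.

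**Figure D2:**
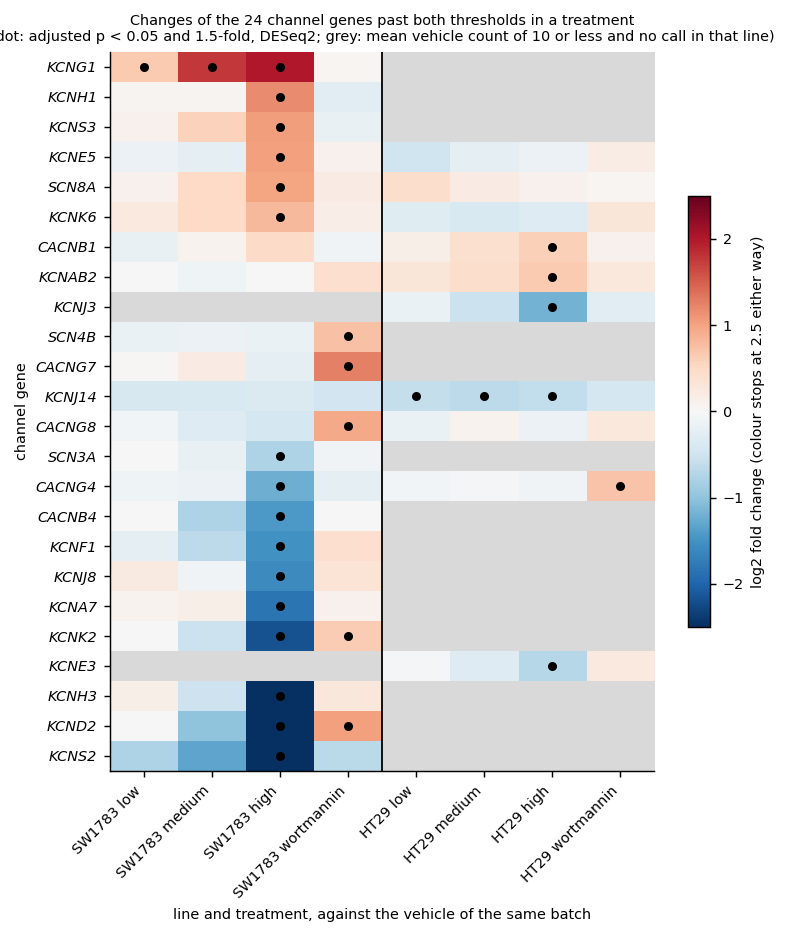
Log2 fold changes of the 24 channel genes (rows) against the vehicle of the same batch in 8 line and treatment combinations (columns). Red is higher, blue is lower, a dot marks a change past both thresholds, and grey marks genes with a mean vehicle count of 10 or less and no call in that line. Most dots stand in the column of the high dose in SW1783, 6 on red and 10 on blue fields.

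At the high dose in SW1783, 6 channel genes rose and 10 fell of 76 with an adjusted p-value (21.1%). Over all genes 17.7% of 20050 passed, 8.41% higher and 9.28% lower. The genes that rose were KCNG1, KCNS3, SCN8A, KCNK6, KCNE5 and KCNH1, and those that fell were KCNK2, KCNA7, CACNG4, SCN3A, KCND2, KCNJ8, CACNB4, KCNF1, KCNS2 and KCNH3. The median log2 fold change was -0.22 over these 76 channel genes and -0.01 over all genes tested.

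The largest rise was that of KCNG1 (ENSG00000026559, chr20:51003656-51023107), a silent Kv modifier. Its normalised counts were 189.6, 191 and 196.7 in the vehicle, 303.9, 304 and 299.3 at the low dose, 601.6, 622.6 and 730.3 at the medium dose and 720.1, 733.4 and 841.8 at the high dose. The vehicle, low and medium groups did not overlap, and the medium and high groups did. Against the vehicle the log2 fold changes were 0.65 ± 0.11 (SE, n = 3 per group, adjusted p = 6.73e-07) at the low dose, 1.76 ± 0.10 (6.43e-62) at the medium dose and 1.99 ± 0.10 (2.73e-81) at the high dose. KCNG1 was the only channel gene to pass at the medium dose, 1 higher and 0 lower of 39 with an adjusted p-value (background 3.81%, 2.34% higher and 1.48% lower). It was also the only one at the low dose, 1 higher and 0 lower of 4 (background 0.103%, 0.0919% higher and 0.0115% lower), where the filter of DESeq2 on mean counts left few channel genes with an adjusted p-value. Without any 1 of the low dose libraries KCNG1 itself received none, and 0 channel genes passed. A gene without a symbol lies opposite KCNG1 on the other strand.

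KCNS3, another silent modifier, rose less. It had 95.3, 84.1 and 92.6 normalised counts in the vehicle, 97.1, 105.1 and 91 at the low dose, 133.3, 136.1 and 133.8 at the medium dose and 173.7, 200.9 and 182.4 at the high dose. The medium group lay above the vehicle and low groups and the high group above the medium group. The change was 1.04 ± 0.16 at the high dose (adjusted p = 2.39e-10) and 0.57 ± 0.16 at the medium dose (adjusted p = 0.00255), the latter short of the fold threshold. Other silent modifiers fell. KCNF1 fell from 20.5, 10.5 and 16.7 to 3.5, 6.3 and 6.5 (-1.51 ± 0.57, adjusted p = 0.0189). KCNS2, whose mean over all libraries was under 10 and which is named after its values were seen, fell from 16.4, 9.6 and 18.7 to 0, 0.9 and 3.7 (-3.20 ± 0.87, adjusted p = 0.000748). In both genes every high dose library was below every vehicle library.

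Among sodium channels the pore subunits moved in opposite directions. SCN8A (ENSG00000196876, chr12:51590266-51812864) had 79.9, 88.5 and 114.5 normalised counts in the vehicle, 98.1, 98.9 and 105.7 at the low dose, 137.9, 133.3 and 129.1 at the medium dose and 200.3, 186.5 and 174.9 at the high dose. The vehicle and low groups overlapped, and the medium and high groups each lay above the dose before. SCN8A rose by 0.99 ± 0.16 at the high dose (adjusted p = 6.25e-09), and its difference at the medium dose was 0.50 ± 0.17 (adjusted p = 0.0121), short of the fold threshold. SCN3A (ENSG00000153253) had 283.8, 299.6 and 267.5 in the vehicle, 280.9, 273.4 and 297.2 at the low dose, 251.5, 253.5 and 241.2 at the medium dose and 164.4, 177.5 and 156.2 at the high dose. The high dose libraries lay below every other library, and the change was -0.77 ± 0.12 (adjusted p = 2.84e-10). For SCN9A the difference at the high dose was -0.19 (95% interval -0.56 to 0.18), and for SCN2A it was -0.53 (95% interval -1.39 to 0.33), neither past the threshold. SCN3A and SCN8A each face a gene without a symbol on the opposite strand.

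**Figure D3:**
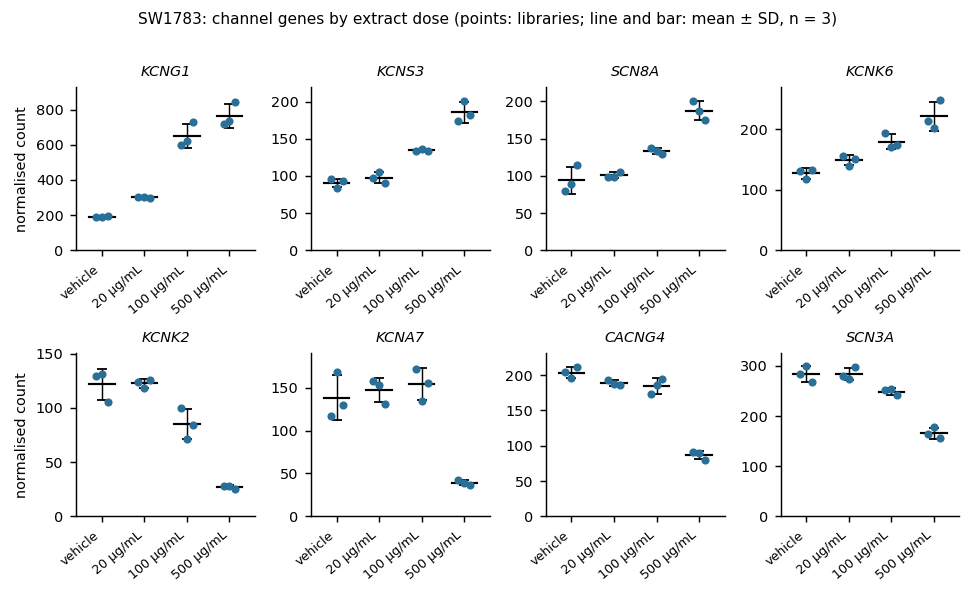
Normalised counts of 8 channel genes in SW1783 at the vehicle, 20, 100 and 500 µg/mL of ACD (batch B). Points are libraries, and the line and bar are mean ± SD (n = 3). KCNG1 is higher from 20 µg/mL on, KCNS3, SCN8A and KCNK6 climb to 500 µg/mL, and in KCNA7, CACNG4 and SCN3A the libraries at 500 µg/mL lie below all others.

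The sequence before a RefSeq start of 5 genes that changed at the high dose is shown, so that the starts of genes that rose and fell can be set side by side. They were taken from RefSeq (GRCh38.p14), where 97 of the 135 channel genes had an entry. Each run is the 150 bases before an annotated start, 5′ to 3′ on the strand of the gene. KCNS3 and KCNK2 have 2 annotated starts, of which the first listed is printed, and the others have 1. The start used for SCN8A lies 967 bases inside the gene as GENCODE bounds it and that of KCNK2 233 bases before it, while those of the other genes are the same in both annotations. Capitals mark the GC box letters GGGCGG on either strand, where matches may run into each other. SCN8A (chr12:51591083-51591232, plus strand), KCNS3 (chr2:17877697-17877846, plus strand) and KCNK6 (chr19:38319695-38319844, plus strand) rose, and KCNA7 (chr19:49072700-49072849, minus strand) and KCNK2 (chr1:215005392-215005541, plus strand) fell.
SCN8A: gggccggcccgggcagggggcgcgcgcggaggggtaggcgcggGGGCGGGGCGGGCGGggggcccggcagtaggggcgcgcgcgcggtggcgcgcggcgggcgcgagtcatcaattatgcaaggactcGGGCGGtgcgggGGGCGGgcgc
KCNS3: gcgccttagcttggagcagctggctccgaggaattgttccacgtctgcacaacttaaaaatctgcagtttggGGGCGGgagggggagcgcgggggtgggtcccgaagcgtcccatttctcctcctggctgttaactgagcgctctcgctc
KCNK6: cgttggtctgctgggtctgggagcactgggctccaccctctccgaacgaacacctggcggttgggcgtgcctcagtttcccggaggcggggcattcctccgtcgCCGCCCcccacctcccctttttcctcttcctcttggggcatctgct
KCNA7: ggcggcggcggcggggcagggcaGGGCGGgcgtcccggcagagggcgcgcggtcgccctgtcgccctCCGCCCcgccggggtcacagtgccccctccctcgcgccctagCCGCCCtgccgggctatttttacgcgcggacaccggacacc
KCNK2: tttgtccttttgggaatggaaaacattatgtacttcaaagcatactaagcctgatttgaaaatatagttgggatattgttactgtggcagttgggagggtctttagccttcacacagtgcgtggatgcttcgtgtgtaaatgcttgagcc
The share of G and C was 84.7%, 60.7%, 66%, 80% and 41.3% in this order, beside a median of 60% over 35116 windows of the same length and 64.7% over the 149 windows of the channel genes. On both strands, GGGCGG occurred in 36.8% of all windows and 45.6% of the channel windows, the CCAAT box letters CCAAT in 23.5% and 22.8%, the TATA box letters TATAAA in 6.71% and 3.36%, and the cyclic AMP response element letters TGACGTCA in 1.4% and 0.671%. The run of KCNK2 holds none of these letters.

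The tandem-pore-domain channels, which carry background potassium current, also moved in both directions. KCNK2 (TREK-1, ENSG00000082482), a channel opened by stretch and lipids, had 129.1, 131.4 and 105.1 normalised counts in the vehicle, 124.1, 118.3 and 125.6 at the low dose, 99.7, 71.8 and 83.9 at the medium dose and 27.8, 27.9 and 25.3 at the high dose. The medium group lay below every vehicle library and the high group below the medium group. The change was -2.18 ± 0.23 at the high dose (adjusted p = 4.78e-20) and -0.53 ± 0.19 at the medium dose (adjusted p = 0.0224), the latter short of the fold threshold. KCNK6, a weakly active member of the family, had 131.2, 117.4 and 133.2 in the vehicle, 156.8, 139.7 and 151.7 at the low dose, 193.6, 170.5 and 174.3 at the medium dose and 214.2, 202.7 and 247.9 at the high dose. Each group lay above the one before it. The rise was 0.80 ± 0.14 (adjusted p = 7.87e-08) at the high dose, and the difference at the medium dose was 0.50 ± 0.14 (adjusted p = 0.00354).

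A Kv1 and a Kv4 pore subunit, KCNA7 and KCND2, fell. KCNA7 (Kv1.7, ENSG00000104848) had 116.8, 168.2 and 130.1 normalised counts in the vehicle, 157.7, 153 and 130.8 at the low dose, 171.6, 134.2 and 155.5 at the medium dose and 42.8, 38.7 and 36.5 at the high dose. The first 3 groups overlapped and the high dose stood below them, by -1.83 ± 0.21 from the vehicle (adjusted p = 2.65e-17) and -1.97 ± 0.21 from the medium dose (7.24e-20). KCND2 (Kv4.2, the A-type channel of dendrites) fell from 34.8, 26.3 and 31.2 to 6.9, 1.8 and 5.6 (-2.72 ± 0.54, adjusted p = 1.69e-06), with 13.9, 10.3 and 21.7 at the medium dose. For KCND1 (Kv4.1), of the same family, the difference was -0.42 (95% interval -0.95 to 0.11), and it did not pass. KCNJ8 (Kir6.1, the pore of a KATP channel) fell from 43, 40.3 and 33.3 to 13.9, 10.8 and 14 (-1.60 ± 0.36, adjusted p = 4.30e-05), with 47.5, 27 and 35.8 at the medium dose. In the direct test of the high against the medium dose, 2 channel genes were higher and 5 lower of 61 with an adjusted p-value (background 9.86%, 4.44% higher and 5.43% lower). KCNE5 and KCNK1 were higher, and KCNA7, CACNG4, KCNK2, KCNJ8 and KCND2 lower. With size factors from TMM the split was 1 and 5, without KCNK1. The call of KCNK1 was lost in 8 of 11 alternatives, with an adjusted p-value up to 0.244 (without medium dose replicate 3). It had 9 to 38 counts in the 18 libraries of SW1783. KCND2 was lost without high dose replicate 2 (adjusted p = 0.0826) or medium dose replicate 3 (0.0804).

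Of the calcium channel genes CACNG4 (ENSG00000075461) fell most clearly. It had 203.9, 195.4 and 211.3 normalised counts in the vehicle, 193.3, 187.7 and 186.3 at the low dose, 172.7, 185.5 and 195.1 at the medium dose and 91.5, 89.2 and 80.4 at the high dose. The high dose libraries lay below all others, and the change was -1.23 ± 0.15 (adjusted p = 4.27e-16). CACNB4, a beta subunit, fell from 18.4, 18.4 and 15.6 to 3.5, 7.2 and 8.4 (-1.43 ± 0.53, adjusted p = 0.0182), and it shares exon sequence with a gene without a symbol. CACNB3 differed by -0.53 ± 0.10 (adjusted p = 8.01e-07) and CACNB1 by 0.48 ± 0.12 (adjusted p = 0.000137), both short of the fold threshold. CACNA1C, the calcium channel pore subunit with the highest level, had a difference of -0.14 (95% interval -0.29 to 0.01).

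The remaining changes rested on low counts. KCNE5, a regulator of KCNQ1, rose from 15.4, 13.1 and 21.9 to 34.7, 36 and 31.8 (1.03 ± 0.38, adjusted p = 0.0163), and it shares exon sequence with ACSL4. KCNH1 (EAG1) rose from 14.3, 9.6 and 11.4 to 42.8, 18.9 and 18.7 (1.17 ± 0.50, adjusted p = 0.0453). Replicate 1 was the highest of these, and without it the change was 0.68 (adjusted p = 0.378). KCNH3, a channel of the same family with a mean under 10, named after its values were seen, fell from 6.1, 8.8 and 9.4 to 3.5, 0.9 and 0 (-2.59 ± 0.95, adjusted p = 0.0167). Several of these calls were lost without 1 library. The adjusted p-value of KCNE5 was then up to 0.106 (without vehicle replicate 2), that of KCNH3 up to 0.104 (without high dose replicate 3), that of CACNB4 up to 0.103 (without high dose replicate 1) and that of KCNF1 up to 0.109 (without vehicle replicate 1). KCNH1 was also lost without any 1 vehicle library. The calcium-activated channels, the highest pore subunits of the line, differed by 0.09 (95% interval 0.00 to 0.17) for KCNMA1 and 0.06 (95% interval -0.15 to 0.27) for KCNN4.

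Marker levels moved with the dose as well. The summed level of the 6 SW1783 markers was 9202 to 9476 CPM in the vehicle and 7456 to 7472 CPM at the high dose. That of the 6 epithelial markers was 221.8 to 230.6 CPM and 68.72 to 75.11 CPM, and that of the 6 neuronal markers 74.77 to 77.17 CPM and 60.29 to 64.42 CPM. The epithelial sum in SW1783 was almost all KRT18, and each other epithelial marker had at most 0.202 CPM in any SW1783 library. Within the neuronal list the log2 fold change was -2.07 ± 0.10 for SNAP25 and 0.83 ± 0.12 for MAP2. Mitochondrial rRNA (MT-RNR1 and MT-RNR2) took 0.913% to 0.96% of the counts in the SW1783 vehicle, 3.01% to 3.33% at the low dose, 7.67% to 8.05% at the medium dose and 5.76% to 6.06% at the high dose. The part of the markers and of this share in the channel gene changes was not tested.

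In HT29 the high dose raised 2 channel genes and lowered 3 of 34 with an adjusted p-value (14.7%). Over all genes 3.1% of 15300 passed, 1.35% higher and 1.75% lower. With TMM size factors the split was 1 and 3, since CACNB1 fell short of the fold threshold there. Of the 5 genes 4 also had an adjusted p-value in SW1783 at the high dose, and 0 were among the 16 that passed there. In SW1783 CACNB1 differed by 0.48 and KCNJ14 by -0.37 at this dose, the same directions as in HT29. For CACNB1 only the fold threshold was missed. KCNE3, with few counts in SW1783, differed by -2.24 and KCNAB2 by 0.01. Over all genes 154 passed in both lines at this dose, 32.5% of those in HT29 and 4.34% of those in SW1783. Without vehicle replicate 1 the split was 2 and 2, with -0.69 ± 0.08 for KCNE3, -1.24 ± 0.25 for KCNJ3 and 0.64 ± 0.17 for KCNAB2 still past both thresholds and CACNB1 and KCNJ14 not. The summed level of the 6 epithelial markers was 4917 to 5031 CPM in the HT29 vehicle and 4344 to 5380 CPM at the high dose, and that of the 6 SW1783 markers 488.6 to 551.2 CPM and 380.3 to 444 CPM. The latter sum was almost all CD44, and each other SW1783 marker had at most 0.416 CPM in any HT29 library. Mitochondrial rRNA took 1.14% to 1.22% of the counts in the vehicle, 0.982% to 1.14% at the low dose, 1.96% to 2.18% at the medium dose and 11.3% to 12.5% at the high dose. The part of these levels in the HT29 results was not tested.

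KCNE3 (ENSG00000175538, chr11:74454841-74467729), the partner of KCNQ1 in crypt cells, was the channel gene with the highest level in HT29. It had 1574.1, 1476.5 and 1524.7 normalised counts in the vehicle, 1389.6, 1468.5 and 1557.5 at the low dose, 1168.3, 1189.8 and 1277.7 at the medium dose and 907, 986.4 and 896.7 at the high dose. The vehicle and low groups overlapped, the medium group lay below both and the high group below the medium group. The change was -0.72 ± 0.07 at the high dose (adjusted p = 1.08e-19), -0.76 ± 0.08 without replicate 2, and -0.33 ± 0.07 at the medium dose (adjusted p = 0.000725), the last short of the fold threshold. Its partner KCNQ1 differed by -0.08 (95% interval -0.36 to 0.20) at the high dose.

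KCNJ3 (Kir3.1, a G-protein-gated inward rectifier) had 284.6, 315.3 and 335.2 normalised counts in the vehicle, 283.1, 300.5 and 254 at the low dose, 223.8, 230.7 and 191.1 at the medium dose and 164.8, 76.9 and 164.3 at the high dose. The lowest value belongs to replicate 2, the library that stood apart. The change at the high dose was -1.17 ± 0.21 (adjusted p = 2.63e-06), and -0.93 ± 0.14 without that library. At the high dose this library was also the lowest for CACNA1D, with 504.3, 220.5 and 477.9, and the gene did not pass the test.

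KCNJ14 (Kir2.4, ENSG00000182324, chr19:48455574-48466980), another inward rectifier, was lower by a similar amount at every dose. It had 291.3, 267.1 and 236.2 normalised counts in the vehicle, 185.1, 160.5 and 176.2 at the low dose, 168.2, 177.8 and 157.2 at the medium dose and 177.9, 194.9 and 150.1 at the high dose. Every treated library lay below the vehicle, and the dose groups overlapped each other. The changes were -0.60 ± 0.14 (adjusted p = 0.0038) at the low dose, -0.65 ± 0.14 (0.000414) at the medium dose and -0.62 ± 0.14 (0.00038) at the high dose, all against the same 3 vehicle libraries. Without replicate 2 of the high dose the last was -0.70 ± 0.16. The call at the high dose was lost without vehicle replicate 1 (-0.56) or high dose replicate 3 (-0.51). That at the low dose was lost without vehicle replicate 1 or 2 or low dose replicate 2 or 3, with adjusted p-values of 0.0648 to 0.144. KCNJ14 was the only channel gene to pass at the low dose, 0 higher and 1 lower of 43 (background 0.282%, 0.135% higher and 0.147% lower). It was also the only one at the medium dose, 0 higher and 1 lower of 43 (background 0.793%, 0.411% higher and 0.382% lower). In batch A KCNJ14 had 250.4, 235.4 and 230.0 in the vehicle and 180.3, 170.0 and 175.6 with wortmannin (-0.44 ± 0.14, adjusted p = 0.0112), short of the fold threshold. It was also lower in SW1783, by -0.40, -0.39 and -0.37 at the low, medium and high doses and -0.48 with wortmannin. None of these passed both thresholds. The gene shares exon sequence on its strand with GRWD1, a ribosome assembly gene, so its counts are uncertain. GRWD1 itself differed in HT29 by -0.03 ± 0.05 at the low dose, 0.01 ± 0.05 at the medium dose, -0.0002 ± 0.05 at the high dose and -0.16 ± 0.06 with wortmannin. In SW1783 it differed by -0.37 ± 0.06 at the high dose and -0.28 ± 0.05 with wortmannin. The part of GRWD1 in the KCNJ14 values was not tested.

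Both genes above the thresholds in HT29 at the high dose were auxiliary subunits, CACNB1 only just. CACNB1 had 176.1, 188 and 167 normalised counts in the vehicle, 206.7, 186.1 and 197.8 at the low dose, 240.6, 233.1 and 227.9 at the medium dose and 298, 224 and 271 at the high dose. KCNAB2, a Kv1 beta subunit of the aldo-keto reductase fold, had 86.1, 83.4 and 92.6 in the vehicle, 112.9, 112.7 and 97.3 at the low dose, 118.1, 115.3 and 119.4 at the medium dose and 139.7, 124.8 and 141.9 at the high dose. In both genes the medium and high groups lay above the vehicle. The difference at the high dose was 0.59 ± 0.13 for CACNB1 (adjusted p = 0.000198), just over the fold threshold of 0.585 on the log2 scale, and 0.67 ± 0.14 without replicate 2. It was 0.50 without high dose replicate 1, 0.57 without high dose replicate 3, 0.55 without vehicle replicate 3 and 0.58 without vehicle replicate 1. In 8 of 11 alternatives the value of CACNB1 was under the fold threshold (0.50 to 0.58), edgeR among them, and its call was lost. For KCNAB2 the rise was 0.65 ± 0.15 (adjusted p = 0.000872), and 0.69 ± 0.18 without replicate 2. No channel gene passed between the high and the medium dose in HT29, 0 of 32 (background 0.7%, 0.387% higher and 0.312% lower). Of the 104 channel genes with counts, DESeq2 gave 4 an unadjusted p-value under 0.05 there, and edgeR called 0. KCNK15 was among these 4 and had no adjusted p-value.

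**Figure D4:**
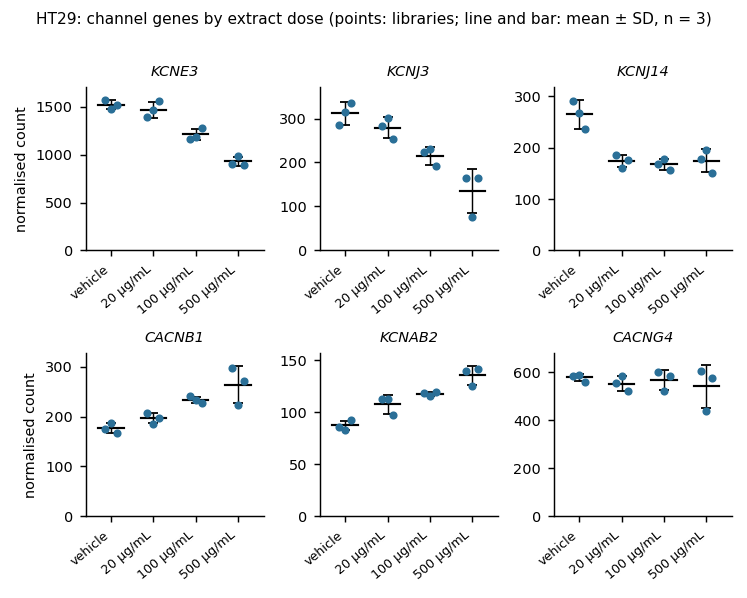
Normalised counts of 6 channel genes in HT29 at the vehicle, 20, 100 and 500 µg/mL of ACD (batch B). Points are libraries, and the line and bar are mean ± SD (n = 3). KCNE3 and KCNJ3 are lowest at 500 µg/mL, KCNJ14 is lower at each dose alike, CACNB1 and KCNAB2 are highest at 500 µg/mL, and CACNG4 has 1 low library there.

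Whether the response of a channel gene differed between the lines was tested as an interaction, the log2 change in SW1783 minus that in HT29. At the high dose 2 genes had a higher and 4 a lower change in SW1783 of 68 with an adjusted p-value (8.82%). Over all genes 15.2% passed, 7.1% higher and 8.07% lower. CACNG4 fell in SW1783 and differed by -0.08 (95% interval -0.32 to 0.15) in HT29, and the interaction was -1.19 ± 0.17 (adjusted p = 3.49e-11). CACNB3 differed by -0.53 ± 0.10 in SW1783 and 0.29 ± 0.11 in HT29 (interaction -0.87 ± 0.13, adjusted p = 9.27e-10). KCNK6 rose in SW1783 and differed by -0.31 ± 0.14 in HT29 (interaction 1.07 ± 0.19, adjusted p = 1.50e-07). KCNAB2 rose in HT29 and differed by 0.01 ± 0.11 in SW1783 (interaction -0.69 ± 0.16, adjusted p = 0.000171). KCNS2 and the inward rectifier KCNJ11 also passed, on low counts. Without replicate 2 of HT29 the interaction was -1.31 ± 0.15 for CACNG4, -0.98 ± 0.11 for CACNB3, 0.94 ± 0.16 for KCNK6 and -0.73 ± 0.18 for KCNAB2. Genes with almost no counts in 1 line gave wide errors. For KCNG1 the interaction was 1.81 ± 1.67 (adjusted p = 0.48) and for KCNK2 -2.37 ± 1.69 (adjusted p = 0.326).

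Wortmannin raised 5 channel genes in SW1783 and lowered 0, of 43 with an adjusted p-value (11.6%). Over all genes 2.71% of 14511 passed, 1.74% higher and 0.965% lower. CACNG7 (chr19:53909278-53943950), a gamma subunit that accompanies AMPA receptors, had 36.8, 59.1 and 60.1 normalised counts in the batch A vehicle and 130.1, 122 and 122.6 with wortmannin (1.26 ± 0.22, adjusted p = 2.06e-07). CACNG8 (chr19:53962937-53990215), 18986 bases away, had 37.9, 28.6 and 34 and then 58.5, 78.3 and 56 (0.94 ± 0.29, adjusted p = 0.00543). In both genes every treated library lay above every vehicle library. CACNG8 lost its call without wortmannin replicate 2 (adjusted p = 0.0884) or vehicle replicate 2 (0.056). CACNG6, 1421 bases beyond CACNG8, had a mean of 4.62 counts and no adjusted p-value.

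KCNK2 and KCND2, which fell with the high dose of ACD, rose with wortmannin. KCNK2 had 167.4, 143.9 and 137.1 normalised counts in the vehicle and 237.6, 208.4 and 253.1 with wortmannin (0.64 ± 0.15, adjusted p = 9.83e-05). KCND2 had 46.9, 48.9 and 34 and then 101.8, 75.2 and 89.3 (1.03 ± 0.25, adjusted p = 0.000307). The treated and vehicle libraries did not overlap in either gene. Without wortmannin replicate 3 the change of KCNK2 was 0.58, short of the fold threshold. The sodium channel beta subunit SCN4B had 94.8, 90.4 and 92.9 and then 131, 168.8 and 161.1 (0.73 ± 0.18, adjusted p = 0.000371). KCNMA1 had 3089.7, 2918.4 and 3150.2 in the vehicle and 2110.9, 2044.5 and 2091.3 with wortmannin, a difference of -0.55 ± 0.04 (adjusted p = 7.99e-36) that was short of 1.5-fold although the groups stood well apart. KCNG1 had 177.4, 213.1 and 249.3 in the vehicle and 212.1, 215.5 and 237.3 with wortmannin, a difference of 0.06 (95% interval -0.22 to 0.34). The neuronal marker sum was 74.74 to 76.03 CPM in the batch A vehicle and 89.86 to 90.56 CPM with wortmannin. Within that list SNAP25 differed by 0.42 ± 0.06 and SYT1 by 0.19 ± 0.07, while MAP2 went the other way (-0.59 ± 0.15). The part of these markers in the channel gene values was not tested.

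In HT29 wortmannin raised 1 channel gene and lowered 0 of 23 with an adjusted p-value (4.35%, background 2.74%, 1.97% higher and 0.768% lower). CACNG4 had 472.6, 498 and 485.8 normalised counts in the vehicle and 769.4, 789.9 and 847.4 with wortmannin (0.72 ± 0.09, adjusted p = 1.05e-13), all above the vehicle, and the change was 0.70 ± 0.09 without vehicle replicate 1. In SW1783 CACNG4 had 234.3, 227 and 269.7 and then 209.3, 204.3 and 203.2, a difference of -0.24 (95% interval -0.50 to 0.02). The interaction was -0.98 ± 0.13 (adjusted p = 2.51e-12), and CACNG4 was the only channel gene to pass it, 0 higher and 1 lower of 31 (background 3.42%, 0.877% higher and 2.54% lower). Short of the fold threshold in HT29, CACNA1D differed by 0.45 ± 0.12 (adjusted p = 0.00175) and CACNB3 by 0.40 ± 0.10 (adjusted p = 0.000814). The channel genes together took 0.0404% to 0.0414% of the HT29 counts with wortmannin and 0.032% to 0.0337% in the vehicle.

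**Figure D5:**
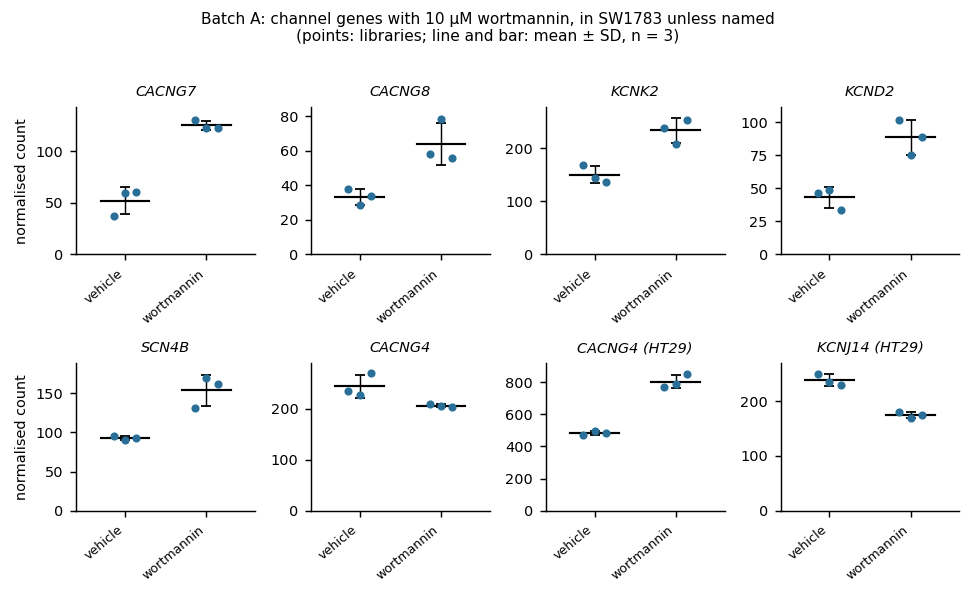
Normalised counts of channel genes in the batch A vehicle and with 10 µM wortmannin, in SW1783 and, where named, HT29. Points are libraries, and the line and bar are mean ± SD (n = 3). CACNG7, CACNG8, KCNK2, KCND2 and SCN4B are higher with wortmannin in SW1783, and CACNG4 is higher in HT29.

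Without a limit on size more channel genes passed in most comparisons. Counting an adjusted p-value under 0.05 at any size, SW1783 had 20 of 76 channel genes at the high dose (background 45%), 7 of 39 at the medium dose (29.5%), 1 of 4 at the low dose (3.57%), 18 of 61 between high and medium (39.3%) and 12 of 43 with wortmannin (32.5%). HT29 had 5 of 34 at the high dose (8.25%), 2 of 43 at the medium dose (1.99%), 1 of 43 at the low dose (0.546%), 1 of 32 between high and medium (1.7%) and 8 of 23 with wortmannin (19.7%).

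Genes for proteins that bind these channels fell or did not pass the test in SW1783 at the high dose. Of a list of 24 channel partners 16 had an adjusted p-value, 0 rose and 6 fell (background 8.41% higher and 9.28% lower), with a median log2 fold change of -0.53 beside -0.01 over all genes. FGF13, an intracellular regulator of sodium channels, fell from 793.1, 824.4 and 814.9 to 446.9, 414.4 and 388.2 normalised counts (-0.97 ± 0.07, adjusted p = 1.09e-36). FGF11 fell by 1.26 on the log2 scale, FGF12 fell by 0.77, ANK2 fell by 0.90 and ANK3 fell by 0.67. Ankyrin-G, the product of ANK3, is known for holding sodium channels at the axon initial segment. STAC2, an adaptor of L-type calcium channels, fell from 1393.6, 1514.8 and 1511.1 to 720.1, 691 and 661.3 (-1.10 ± 0.06, adjusted p = 2.79e-66). At the medium dose 0 of 14 rose and 1 fell (background 2.34% and 1.48%), and in HT29 0 of 8 passed at the high dose (background 3.1%).

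Pumps and exchangers, which maintain the gradients that the channels use, moved in both directions. Of 22 listed genes 16 had an adjusted p-value in SW1783 at the high dose, 2 rose and 2 fell (background 8.41% higher and 9.28% lower). ATP2A3, an endoplasmic reticulum calcium pump, rose from 27.7, 31.5 and 39.5 normalised counts to 343.8, 350.5 and 380.7 (3.45 ± 0.19, adjusted p = 4.16e-73), with 154.2, 170.5 and 179 at the medium dose. Of the plasma membrane calcium pumps ATP2B1 rose (0.94 ± 0.03) and ATP2B4 fell (-0.96 ± 0.03). ATP1B1, a sodium-potassium pump subunit, fell from 2363, 2480.2 and 2391.6 to 789.5, 775.7 and 762.3 (-1.64 ± 0.05, adjusted p = 2.57e-227). In HT29 the only one of 15 such genes to pass at the high dose (background 3.1%) was SLC12A2, the chloride-loading cotransporter of secretory epithelium, which fell from 15979.2, 17360.3 and 17942.9 to 11621.2, 9590.7 and 12164.5 (-0.62 ± 0.10, adjusted p = 2.50e-08).

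Of 24 genes for other cation channels 17 had an adjusted p-value in SW1783 at the high dose, 2 rose and 2 fell, a share near the background of 17.7%. The calcium release channel ITPR3 (0.82 ± 0.04) and the store sensor STIM1 (0.69 ± 0.05) rose. The related sensor STIM2 (-0.64 ± 0.09) and the epithelial sodium channel subunit SCNN1A (-2.27 ± 0.38) fell. In HT29 0 of 12 passed at the high dose (background 3.1%).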

How the data were processed

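RNA was sequenced from 36 libraries of SW1783 and HT29 cells, in 12 groups of 3. The authors prepared directional mRNA libraries and, per the submitters' processing notes, used FastQC 0.11.9, Trim Galore 0.6.5, STAR 2.7.3a and RSEM 1.3.3 on GRCh38. The methods give other versions of Trim Galore and STAR, add Ensembl annotation 84 and also name hg19. The deposited table holds RSEM expected counts per gene, made by the authors. RSEM shares reads that fit several genes among them, and 8.84% of the values were not whole. Its strand setting is not given in the sources used here. Library totals give a floor of 3 counts equal to 0.113 to 0.159 CPM in SW1783 and 0.0886 to 0.188 CPM in HT29, and floors cover counting error only.

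Expected counts were rounded and tested with DESeq2 1.42.0 (Wald test, Benjamini-Hochberg adjustment over all genes, R 4.3.3), as the study's methods do. Each line was fitted in batch B on 12 libraries and in batch A on 6, interactions on 24 or 12 and the line difference on 6 vehicles. Positions, gene types and exon lengths came from GENCODE 44, and upstream sequences from RefSeq. Normalised counts are counts divided by DESeq2 size factors. Intervals are 95% Wald intervals. The DESeq2 and edgeR fits were tested on counts simulated in the layout of SW1783 batch B, with known changes placed only in genes of high count. Changes at low counts and the wider spread of HT29 were not covered by that test. Alternatives were edgeR 4.0.16 (quasi-likelihood test, TMM), TMM size factors in DESeq2, a mean count of at least 10, no fold threshold, the compared groups alone, the vehicles of batch A, the replicate number as a block and leaving out each library.

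The channel genes and the lists of channel partners, pumps and exchangers, other cation channels and cell type markers were chosen with earlier results of these data known. Named were genes with a mean normalised count of at least 10 that passed in any treatment comparison, the 3 highest per ion and line, all sodium channel pore subunits, CACNA1B, CACNA1C, CACNA1E and KCNH2, up to 10 genes per interaction and up to 4 per list and comparison. Genes named outside this rule are given as context beside them, and some genes within it are not reported here. Of the channel genes, 16 share exon sequence with another gene on their strand and 50 face one on the other strand, so their counts are less certain.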

Additional observations from a re-analysis of the deposited data

Results flagged for a closer look

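In 7 cases the response of a channel gene differed between SW1783 and HT29 by the test of the difference itself (DESeq2 interaction, log2 change in SW1783 minus that in HT29). At the high dose of ACD the difference was -1.1907 for CACNG4, -0.8689 for CACNB3, 1.0699 for KCNK6 and -0.6879 for KCNAB2. KCNS2 differed by -3.3142, with normalised counts of 16.4, 9.6 and 18.7 in the SW1783 vehicle and 0, 0.9 and 3.7 at the high dose, and 4, 8 and 5.3 in the HT29 vehicle and 7.6, 1.7 and 8.2 at the high dose. KCNJ11 differed by 3.9617, but it had no counts in the SW1783 vehicle and 3.5, 3.6 and 2.8 at the high dose, near the floor of 3 counts, so that its fitted size depends on the model. It had 25.2, 30 and 33 in the HT29 vehicle and 37.1, 18.8 and 41.1 at the high dose. With wortmannin the difference for CACNG4 was -0.9837. Line and culture conditions (medium, carbon dioxide and plating density) cannot be told apart in these differences.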

How the results depend on the processing

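Of 113 calls of a channel gene in a comparison, 88 held under every alternative that gave an adjusted p-value, and 0 changed direction. The line difference in vehicle made up 68 of the 113, and treatment against vehicle 31. Among the 31, some were lost in at least 1 alternative. In SW1783 these were KCNE5, KCNH3, CACNB4, KCNF1 and KCNH1 at the high dose and KCNK2 and CACNG8 with wortmannin. In HT29 they were CACNB1 at the high dose and KCNJ14 at the high and low doses. In 6 fits a called gene received no adjusted p-value. edgeR called 5 channel genes (2 higher, 3 lower) in SW1783 at the medium dose and 13 (5 and 8) between the high and medium doses. The filter on a mean count of 10 gave 2 at the medium dose, and a fit of the compared groups alone gave 0 at the low dose, where KCNG1 received no adjusted p-value. Without the fold threshold the counts were 7 at the medium dose, 18 between high and medium and 12 with wortmannin in SW1783, and 2 at the medium dose, 1 between high and medium and 8 with wortmannin in HT29.

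Leaving out 1 library gave 12 to 15 calls in SW1783 at the high dose, 1 to 4 at the medium dose, 0 to 1 at the low dose, 6 to 8 between high and medium and 4 to 5 with wortmannin. In the medium dose comparison the 4 came without vehicle replicate 3. In HT29 it gave 3 (without high dose replicate 3) to 6 (without high dose replicate 2) at the high dose, 1 to 2 at the medium dose, 0 to 1 at the low dose and 1 to 2 with wortmannin. The interaction at the high dose had 5 to 8 calls, that with wortmannin 1, and the line difference 57 to 61. Transcribed channel genes numbered 51 to 54 for SW1783, and for HT29 they numbered 29 to 34. The interaction of KCNJ11 was lost without replicate 2 of the SW1783 vehicle (adjusted p = 0.0538).

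Replicate numbers were not taken to pair the libraries in any treatment comparison, since in none were all same-numbered correlations over 0.1. The correlation of same-numbered deviations from the group means ran from -0.507 to 0.377 in HT29 and from -0.126 to 0.234 in SW1783 in batch B, with 5 of 18 over 0.1 in each. The low and medium doses of SW1783, which were not compared, did correlate in every number (0.125 to 0.219), and same-numbered vehicles were closer across the batches. With the replicate block there were 15 calls in SW1783 at the high dose, 1 at the medium and 1 at the low dose, 6 between high and medium and 4 with wortmannin. In HT29 the block gave 4, 1, 1, 0 and 1 in the same order, and it gave 6 and 1 for the interactions and 57 for the line difference. In the treatment comparisons the block ended the calls of KCNH1 (adjusted p = 0.0884), KCNK1 (0.0894) and CACNG8 (0.0833) in SW1783 and that of CACNB1 in HT29, the last by its fold. The causes of these shifts were not tested. Depth limits the genes near or under 10 counts, whose changes may be missed.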

Other observations

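Markers of other cell types were low. The summed level of 4 enteroendocrine markers was 6.31 to 13.1 CPM over the SW1783 libraries, where SCG2 was over 1 CPM and NEUROD1 had no counts, and 0.185 to 0.629 CPM over the HT29 libraries. The summed level of 5 muscle markers was 0.383 to 1.49 CPM in SW1783 and 0.753 to 2.08 CPM in HT29.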
